A study of Homo sapiens with 16 samples.

Results

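The genes described here are the nuclear genes that encode subunits of the mitochondrial respiratory chain and of ATP synthase. They were taken by gene name from the tables of both RNA experiments, with a pattern that covers the subunits of complex I (NDUF names), complex II (SDH), complex III (UQCR), complex IV (COX) and ATP synthase (ATP5). The pattern matched 78 of 59609 genes, 37 of complex I, 4 of complex II, 8 of complex III, 11 of complex IV once NDUFA4 was counted there, and 18 of ATP synthase. No measured value was used to choose them, and the pattern leaves out some subunits, such as CYC1 of complex III. Poly(A) RNA was sequenced from cells labelled Huh7, a human hepatocellular carcinoma line, in 4 groups of 3 libraries. The treated cells of the first experiment received sorafenib, a multikinase inhibitor used against liver cancer, and their controls received DMSO, its solvent. In the second experiment the cells overexpressed MT1G (MT1G-OE), a metallothionein that binds zinc and copper, and their controls carried an empty vector. ATAC-seq, in which a transposase inserts adapters into open chromatin, was run on 2 sorafenib and 2 DMSO samples. No dose, treatment time, promoter of the construct or origin of the replicates was given in the labels.

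Complex I takes electrons from NADH and complex II takes them from succinate, and both pass them to ubiquinone. Complex III hands them on to cytochrome c, and complex IV uses them to reduce oxygen to water. Complexes I, III and IV pump protons across the inner mitochondrial membrane, and ATP synthase makes ATP as protons flow back through it. All of these except complex II also contain subunits encoded by mitochondrial DNA, so most of the assemblies draw on both genomes. In liver cells this machinery supports energy-demanding work such as urea and glucose synthesis, and proliferating tumour cells also rely on it to keep electron acceptors available.

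Levels are the authors' normalized read counts, which are reads per gene divided by a size factor of the library, and they can be compared between libraries of 1 experiment but not between genes of different length. The 12 libraries held 16549330 to 26781600 reads in genes. Changes were tested with limma on log2 of the normalized count plus 1, over all genes with a mean of at least 10, with p-values adjusted over all of them at a threshold of 0.05. The labelled line was not borne out by its markers. Of 18 hepatocyte and hepatoma markers 2 (HNF4A and RBP4) reached that mean in either experiment, and ALB and APOB were at 0 reads in all 12 libraries. AFP stayed at or below 4.97 normalized read counts in every library. MT1G itself was at 0 reads in all DMSO and all vector libraries. It had 189, 158 and 194 normalized read counts in the sorafenib libraries and 140.2, 130.2 and 179 in the MT1G-OE libraries. The labels do not tell whether replicates came from separate cultures, and p-values measure only the spread between these samples. In bulk RNA, fewer cells of a type and less RNA per cell cannot be told apart.

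Some libraries stood apart for these genes. DMSO replicate 3 was the highest of the DMSO libraries for 67 of the 74 subunit genes tested in that experiment, or 90.5%, against 41.7% of all tested genes. MT1G-OE replicate 3 was at least 1.5-fold above both other MT1G-OE libraries for 7 of 75 subunit genes, or 9.33%, against 2.44% of all tested genes. Counts without either library are given beside the main ones.

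Promoters of 6 subunit genes are shown because they bracket the response to sorafenib described below. They belong to the genes with the largest falls, to a pair with nearly no change, and to NDUFV2, which rose. They were picked with these changes known, among tested genes with 1 start site in the table. The promoter of NDUFS4, which had the next smallest change among these genes, is not printed. Each line gives the 250 bases before the RefSeq start site in GRCh38.p14, 5′ to 3′ on the gene's strand. Capitals mark matches on either strand to a binding motif of NRF1 (GCGC, any base, TGCGC), of ETS factors such as GABPA (CCGGAAG), of YY1 (AAGATGGCG), to the cAMP response element (TGACGTCA) or to the CCAAT box.
ATP5ME: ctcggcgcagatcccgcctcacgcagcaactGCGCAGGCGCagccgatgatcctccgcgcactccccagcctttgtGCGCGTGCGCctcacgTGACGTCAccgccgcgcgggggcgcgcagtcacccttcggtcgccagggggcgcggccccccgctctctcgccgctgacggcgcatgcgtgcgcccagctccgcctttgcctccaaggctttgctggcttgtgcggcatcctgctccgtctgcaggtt
ATP5MC1: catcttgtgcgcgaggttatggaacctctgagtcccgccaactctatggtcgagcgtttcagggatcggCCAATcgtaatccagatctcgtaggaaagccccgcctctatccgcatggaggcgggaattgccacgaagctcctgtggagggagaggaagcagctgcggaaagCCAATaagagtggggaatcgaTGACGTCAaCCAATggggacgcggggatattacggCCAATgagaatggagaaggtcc
SDHA: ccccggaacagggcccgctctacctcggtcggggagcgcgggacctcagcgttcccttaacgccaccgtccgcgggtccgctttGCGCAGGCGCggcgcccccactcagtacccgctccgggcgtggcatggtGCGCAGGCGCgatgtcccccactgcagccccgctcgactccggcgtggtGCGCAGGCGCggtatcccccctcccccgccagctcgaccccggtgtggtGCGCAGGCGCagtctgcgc
NDUFA10: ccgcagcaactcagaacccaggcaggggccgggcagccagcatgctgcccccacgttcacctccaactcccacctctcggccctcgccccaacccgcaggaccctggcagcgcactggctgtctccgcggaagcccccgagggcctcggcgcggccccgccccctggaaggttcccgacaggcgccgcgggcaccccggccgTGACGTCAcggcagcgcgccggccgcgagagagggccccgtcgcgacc
NDUFV1: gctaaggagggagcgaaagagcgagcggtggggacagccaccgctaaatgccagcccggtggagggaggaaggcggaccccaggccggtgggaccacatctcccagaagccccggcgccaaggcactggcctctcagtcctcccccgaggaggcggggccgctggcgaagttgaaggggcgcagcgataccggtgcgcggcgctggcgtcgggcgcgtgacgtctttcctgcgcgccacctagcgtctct
NDUFV2: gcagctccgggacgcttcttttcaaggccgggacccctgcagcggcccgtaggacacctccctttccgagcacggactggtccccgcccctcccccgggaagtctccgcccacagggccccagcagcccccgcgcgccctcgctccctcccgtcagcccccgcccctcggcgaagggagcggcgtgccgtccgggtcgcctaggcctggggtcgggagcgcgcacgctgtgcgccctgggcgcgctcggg
The windows lie at chr4:674277-674526 on the minus strand, chr17:48892537-48892786 on the plus strand, chr5:218070-218319 on the plus strand, chr2:240025343-240025592 on the minus strand, chr11:67606686-67606935 on the plus strand and chr18:9102449-9102698 on the plus strand. In the printed bases SDHA held 4 NRF1 matches, whose first bases lie 166, 117, 68 and 19 bases before the start. ATP5ME held 2 NRF1 matches and a cAMP response element, and ATP5MC1 held a cAMP response element and 4 CCAAT boxes. NDUFA10, which did not pass the test, held a cAMP response element as well. The printed bases of NDUFV1 and NDUFV2 held none of these letters.

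Of the 78 genes 65 had a start site in the RefSeq promoter table, and 8 of these had more than 1. In windows of 300 bases, from 250 before to 50 after a start, the NRF1 letters were found in 16 of the 65 genes, or 24.6%, against 6.98% of all 27305 genes in the table and 13.2% of the 10374 genes that were also tested with sorafenib. The ETS letters were found in 21 genes (32.3%, against 12.2% and 22.1%). YY1 letters were present in 9 genes (13.8%, against 2.14% and 4.64%) and the cAMP response element in 5 (7.69%, against 2.25% and 3.86%). The CCAAT box went the other way, with 21 genes (32.3%) against 39.7% of all genes and 43.1% of tested genes. A stricter NRF1 palindrome, which has A as the free base and so lies inside the NRF1 letters, was found in 4 genes (6.15%, against 1.52% and 2.73%). A longer ETS form, ACCGGAAGT, which holds the ETS letters, was found in 2 (3.08%, against 1.198% and 2.41%). These 7 forms are all that were searched, and no test was made. With sorafenib the median log2 change was -0.68 over the 21 tested genes with the ETS letters and -0.47 over the 41 without them. For the NRF1 letters it was -0.47 over 15 genes with them and -0.50 over 47 without. For YY1 it was -0.33 over 7 and -0.51 over 55, and for the cAMP response element -0.59 over 5 and -0.49 over 57. For the CCAAT box it was -0.58 over 20 and -0.45 over 42. The longer ETS form gave -0.05 over 2 and -0.50 over 60, and the NRF1 palindrome -0.44 over 4 and -0.50 over 58. A match describes letters, not a bound site.

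Chromatin was accessible at every subunit gene start that could be looked up. All 65 genes had a peak within 1 kb of a start in each of the 4 ATAC-seq libraries. The same held for 56.8% and 56.1% of all 27305 genes in the sorafenib libraries and for 55.2% and 57.6% in the DMSO libraries. Of these 27305 genes only 10374 were also tested for RNA with sorafenib, and the share with a peak among those was not counted. The authors' fold enrichment over local background, for the peaks of the 65 subunit genes, had medians of 14.3 and 14.9 in the sorafenib lists. In the DMSO lists the medians were 14.3 and 16.6. Over their whole lists the medians were 5.51 and 5.56 with sorafenib and 6.61 and 6.94 with DMSO. Those lists also hold peaks away from start sites. For each subunit gene the peak with the lowest q near a start was taken, so these medians do not set like against like. Fold enrichment is a peak's own value and is read within its list. Values of different libraries are therefore not comparable, and no change was tested. For SDHA it was 10.2 and 10.6 in the sorafenib libraries and 11.6 and 12.8 in the DMSO libraries. For NDUFV2 it was 17.8 and 15.8 in the sorafenib libraries and 12.5 and 16.4 in the DMSO libraries. The starts of NDUFA3, NDUFA6 and NDUFA7, whose read counts were low or 0, carried peaks too. NDUFA6 had fold enrichments of 17.1 and 16.2 in the sorafenib libraries and 16.2 and 19.4 in the DMSO libraries. Why few or no reads were counted for these genes was not tested.

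**Figure D1:**
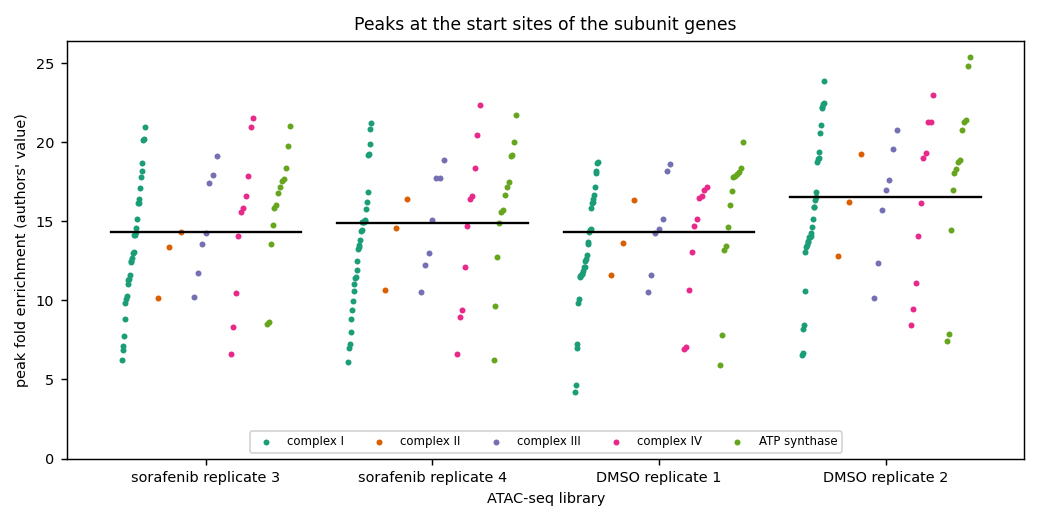
The vertical axis is the authors' fold enrichment of the peak at each gene's start, with a point for each of 65 subunit genes, coloured by complex, in the sorafenib and then the DMSO libraries; black lines are medians (14.3, 14.9, 14.3 and 16.6). Every gene has a point in every library, from 4.21 (NDUFB10 in DMSO replicate 1) to 25.4 (ATP5MD in DMSO replicate 2).

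With sorafenib, subunit genes of all 5 complexes fell together in these RNA counts. Of 74 tested genes 66 fell and 1, NDUFV2, rose, while 7 did not pass the test. Among all 14915 tested genes, 35.8% fell and 34.4% rose, 70.3% in either direction. The median log2 change was -0.51 over the subunit genes and -0.02 over all tested genes. In 66 genes every sorafenib library lay below every DMSO library, which was so for 37.2% of all tested genes. Strongly expressed genes as a class also fell: among the 10% of tested genes with the highest means 67.6% fell, with a median of -0.32, and of the 27 subunit genes in that class 25 fell, with a median of -0.57. The share of all reads that came from the 78 genes was 0.914% to 0.960% in the sorafenib libraries and 1.11% to 1.24% in the DMSO libraries. Reads of all mitochondrial DNA genes made up 3.38% to 3.64% with sorafenib and 4.75% to 5.09% with DMSO. Summed normalized read counts of other marker lists moved with the groups as well. The 18 hepatocyte and hepatoma markers summed to 444 to 492 with sorafenib and 867 to 993 with DMSO, with 5 of them at 0 in all libraries. The 7 fibroblast and stellate markers summed to 1039 to 1079 with sorafenib and 2338 to 2591 with DMSO, the 6 leukocyte markers to 28.7 to 29.0 and 36.6 to 46.9, and the 5 endothelial markers to 36.3 to 57.1 and 69.4 to 79.7. Single markers went both ways within some of these lists. Of 5 tested fibroblast and stellate markers 1 rose and 2 fell, and of 2 tested leukocyte markers 1 rose and 1 fell. Of 2 tested endothelial markers 1 fell, and in 1 all sorafenib libraries lay above all DMSO libraries. The 2 tested hepatocyte and hepatoma markers fell. The part of these markers in the fall of the subunit genes was not tested.

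The size of the fall depends on the scaling of the libraries. Dividing by total reads instead of the authors' size factors raised the median of all tested genes by 0.22 on the log2 scale. On that scale 52 subunit genes fell and 4 rose (NDUFV1, NDUFV2, NDUFA10 and UQCRFS1), with a median of -0.28. Relative to the median of all genes, the subunit median was -0.48 with total reads and -0.49 with the authors' factors. Without DMSO replicate 3, 64 genes fell, with NDUFA2 and COX6A1 lost, NDUFV2 still rose, and the median was -0.44. Counts of 0 rises in complexes II to V were also 0 at an unadjusted p under 0.05 in limma.

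**Figure D2:**
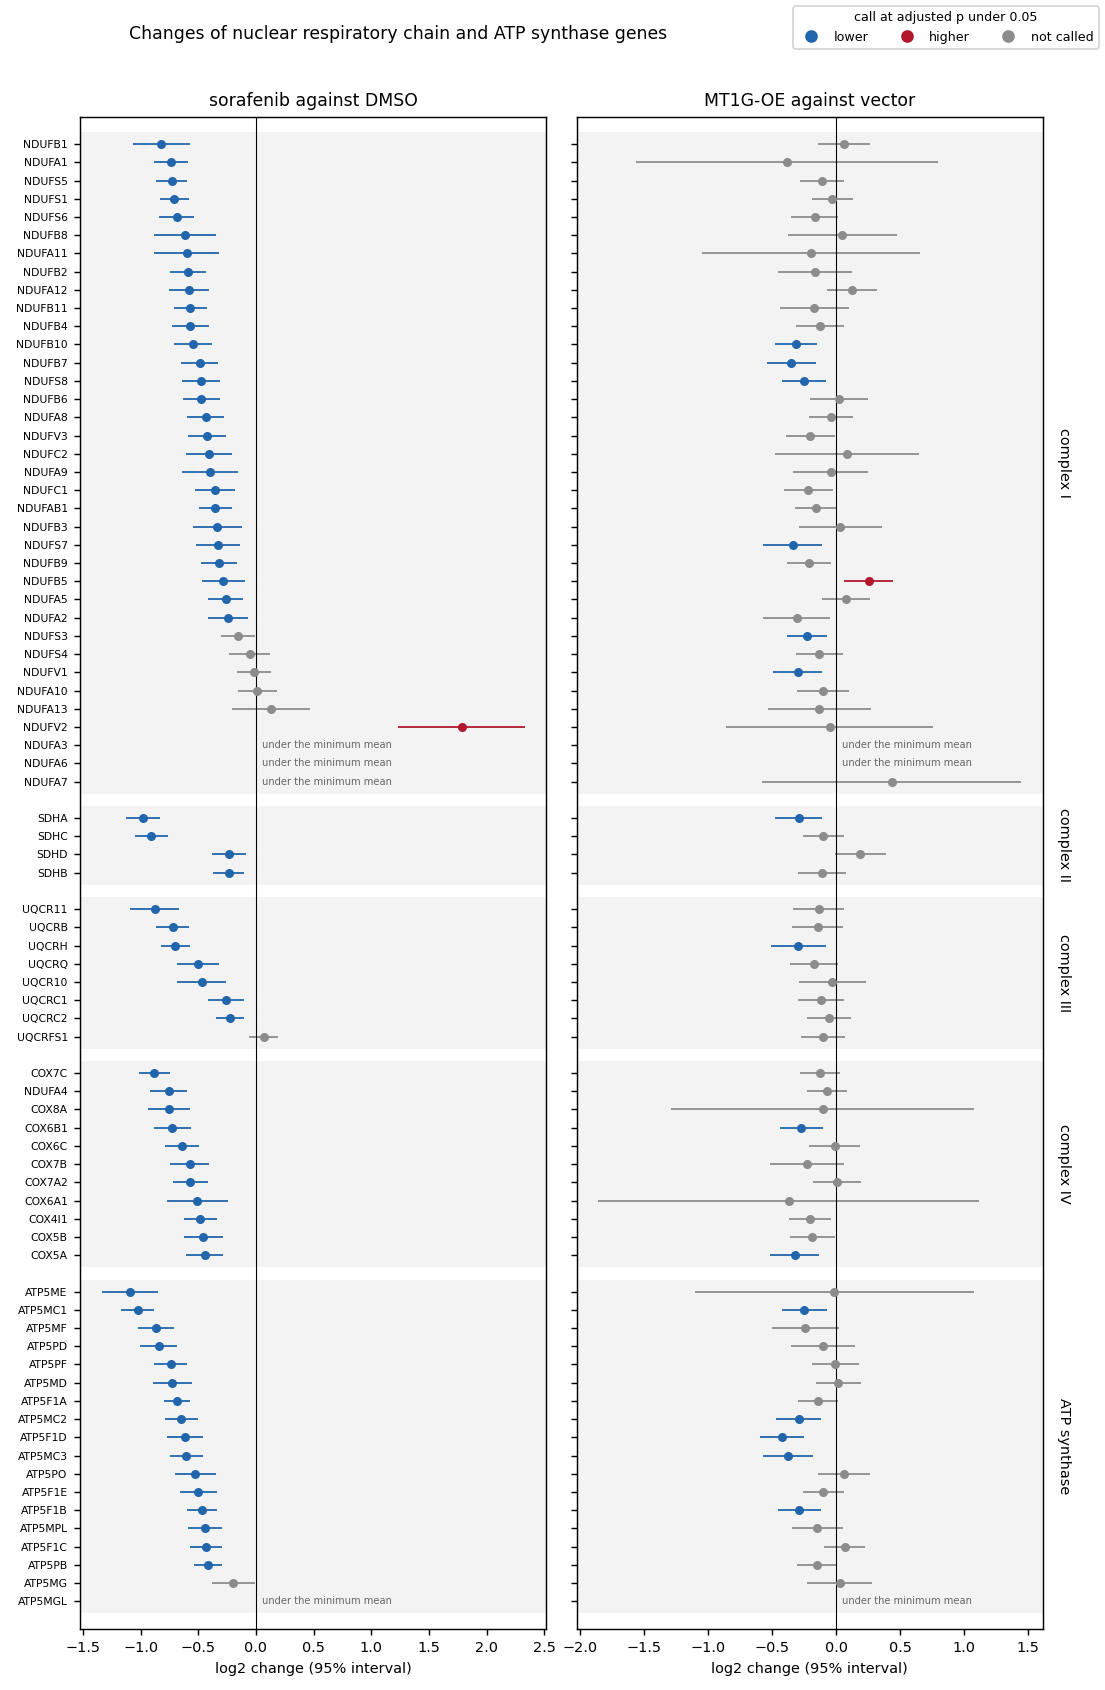
Horizontal axes give the log2 change of each subunit gene with its 95% interval from limma, with sorafenib against DMSO on the left and MT1G-OE against vector on the right; genes run down the page by complex in the order of their change with sorafenib, coloured by the call. 1 tested gene is not drawn. On the left most points are blue and NDUFV2 alone is red, and on the right 15 points are blue and NDUFB5 is red.

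Complex I, the entry point for NADH, had 28 of 34 tested subunits lower with sorafenib and 1 higher, with a median of -0.43. Its 7 nuclear core subunits carry the electron path, and they did not move as a block, since 4 fell, 1 rose and 2 did not pass. NDUFS1, the largest iron-sulfur subunit, had 1582, 1644 and 1637 normalized read counts in the sorafenib libraries, against 2665, 2735 and 2537 in the DMSO libraries. The groups did not overlap, and NDUFS1 fell by 0.71 ± 0.06 on the log2 scale (SE, limma adjusted p = 2.14e-08), to 61.3% of its DMSO mean. The iron-sulfur subunits NDUFS8 and NDUFS7 fell by less. NDUFS8 had 3144, 2968 and 2943 in the sorafenib libraries, against 3985, 3817 and 4866 in the DMSO libraries (log2 change -0.48 ± 0.08 (SE), limma adjusted p = 4.10e-05). NDUFS7, which carries the last cluster before ubiquinone, had 540.1, 496 and 481 in the sorafenib libraries, against 640.0, 567 and 703 in the DMSO libraries (log2 change -0.33 ± 0.09 (SE), limma adjusted p = 0.00361). The fall of NDUFS7 did not pass with scaling by total reads.

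NDUFV1, which binds NADH and the flavin, had 5082, 4672 and 4387 normalized read counts in the sorafenib libraries, against 4643, 4425 and 5233 in the DMSO libraries. The libraries of both groups overlapped, and the change was -0.02 ± 0.07 on the log2 scale (SE, 95% interval -0.17 to 0.14, limma adjusted p = 0.858). NDUFS3, another core subunit, had 2573, 2701 and 2567 in the sorafenib libraries, against 2683, 2809 and 3271 in the DMSO libraries. A sorafenib library, replicate 2, lay above the lowest DMSO library, and NDUFS3 missed the threshold (log2 change -0.16 ± 0.07 (SE), limma adjusted p = 0.0597). NDUFV2, the partner of NDUFV1 in the NADH module, had 51.5, 48.0 and 49.1 normalized read counts in the sorafenib libraries, against 14.6, 10.6 and 16.4 in the DMSO libraries. All sorafenib libraries lay above all DMSO libraries, and NDUFV2 rose by 1.79 ± 0.26 on the log2 scale (SE, limma adjusted p = 1.31e-05), or 3.57-fold on the scale of the means. These levels rest on 61, 53 and 46 reads with sorafenib and 13, 11 and 15 with DMSO. The gene overlaps an antisense gene, NDUFV2-AS1, which had 19.0 ± 3.89 normalized read counts in sorafenib and 10.5 ± 0.933 in DMSO libraries (SD, n = 3 each) and also rose, by 0.78 (limma adjusted p = 0.0473). Its pseudogene NDUFV2P1 had 31.8 ± 5.80 normalized read counts in sorafenib and 72.5 ± 8.87 in DMSO libraries and fell by 1.17 (limma adjusted p = 9.64e-05). Whether the counting used strand, and how reads shared with a copy were assigned, was not given in the sources used here, so the level of NDUFV2 is uncertain.

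The accessory subunits of complex I surround the core and are needed for its assembly and stability. Of 27 tested, 24 fell and none rose at the threshold, with a median of -0.44. NDUFB1, a small membrane-arm subunit, had 388, 367 and 303 normalized read counts in the sorafenib libraries, against 539, 594 and 746 in the DMSO libraries. The groups were apart by a wide margin, with the lowest sorafenib value in replicate 3, and NDUFB1 fell by 0.82 ± 0.12 on the log2 scale (SE, limma adjusted p = 1.18e-05). NDUFA1, encoded on the X chromosome, had 1204, 1309 and 1151 in the sorafenib libraries, against 2021, 1916 and 2185 in the DMSO libraries. It fell by 0.74 ± 0.07 on the log2 scale (SE, limma adjusted p = 9.44e-08), to 59.8% of its DMSO mean. NDUFS6, a zinc-binding subunit near the NADH module, had 5102, 4702 and 4379.5 in the sorafenib libraries, against 7189.7, 7217 and 8458 in the DMSO libraries (log2 change -0.69 ± 0.07 (SE), limma adjusted p = 3.54e-07). The other falls in this class ran from -0.24 for NDUFA2 to -0.73 for NDUFS5. NDUFA2, NDUFA5, NDUFA9, NDUFAB1, NDUFB3, NDUFB5, NDUFB9, NDUFC1 and NDUFC2 did not pass with scaling by total reads. NDUFA2 also missed the threshold without DMSO replicate 3, without sorafenib replicate 2 and without sorafenib replicate 3, and NDUFB5 without sorafenib replicate 3. NDUFA10 had 629, 689.5 and 674 in the sorafenib libraries, against 669, 605 and 704 in the DMSO libraries, with groups that overlapped fully (log2 change 0.01 ± 0.08, 95% interval -0.16 to 0.18). NDUFS4 and NDUFA13 changed by -0.05 ± 0.08 and 0.13 ± 0.16 and did not pass.

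Complex II, which oxidises succinate and belongs to the citric acid cycle as well, is encoded by nuclear genes only, and all 4 of them fell (median -0.57). SDHA, the flavoprotein that binds succinate, had 603, 616 and 654 normalized read counts in the sorafenib libraries, against 1199, 1248 and 1247 in the DMSO libraries. The spread within each group was small beside the gap, and SDHA fell by 0.98 ± 0.07 on the log2 scale (SE, limma adjusted p = 2.42e-09), to 50.7% of its DMSO mean. SDHC, a membrane anchor, had 1514, 1509 and 1491 in the sorafenib libraries, against 2652, 2724 and 3105 in the DMSO libraries. It fell by 0.91 ± 0.07 on the log2 scale (SE, limma adjusted p = 4.31e-09). SDHB and SDHD, the iron-sulfur subunit and the other anchor, fell less: SDHB had 1541, 1474 and 1507 in the sorafenib libraries, against 1678, 1758 and 1892 in the DMSO libraries (log2 change -0.24 ± 0.06 (SE), limma adjusted p = 0.00356). SDHD had 666, 675 and 693 in the sorafenib libraries, against 809, 782 and 804 in the DMSO libraries (log2 change -0.24 ± 0.07 (SE), limma adjusted p = 0.00610). The falls of SDHB and SDHD did not pass with scaling by total reads, while those of SDHA and SDHC did. The difference between the pairs was not tested. RefSeq names 4 pseudogenes of SDHA, 5 of SDHC and 7 of SDHD, and reads shared with them could have been split.

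Complex III had 7 of 8 subunits lower and none higher (median -0.49). UQCR11, one of its smallest subunits, had 289, 243 and 305 normalized read counts in the sorafenib libraries, against 496, 493 and 548 in the DMSO libraries. Every sorafenib library was far under the lowest DMSO library, and UQCR11 fell by 0.88 ± 0.10 on the log2 scale (SE, limma adjusted p = 7.22e-07). UQCRB, which lies near a ubiquinone site, had 971, 998 and 1044 in the sorafenib libraries, against 1624, 1583 and 1772 in the DMSO libraries. It fell by 0.72 ± 0.07 on the log2 scale (SE, limma adjusted p = 7.41e-08). UQCRH, the hinge protein that contacts cytochrome c1, had 5116, 4916 and 4759 in the sorafenib libraries, against 7654, 7735 and 8623 in the DMSO libraries (log2 change -0.70 ± 0.06 (SE), limma adjusted p = 3.95e-08). The large core proteins UQCRC1 and UQCRC2 fell by 0.26 ± 0.07 and 0.22 ± 0.06 (SE, limma adjusted p = 0.00444 and 0.00214), and neither passed with scaling by total reads. UQCRFS1, the Rieske iron-sulfur protein, had 2264, 2306 and 2213 in the sorafenib libraries, against 2109, 2091 and 2269 in the DMSO libraries. Its groups overlapped, and its change was 0.07 ± 0.06 (SE, 95% interval -0.06 to 0.19).

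Complex IV, cytochrome c oxidase, had all 11 nuclear subunits lower, with changes from -0.44 (COX5A) to -0.88 (COX7C) and a median of -0.57. COX7C, a small membrane subunit, had 4313, 3959 and 4030.3 normalized read counts in the sorafenib libraries, against 7147, 7361 and 8175 in the DMSO libraries. No values overlapped, and COX7C fell by 0.88 ± 0.06 on the log2 scale (SE, limma adjusted p = 3.40e-09). NDUFA4, first assigned to complex I and now counted with complex IV, had 2626, 2423 and 2405 in the sorafenib libraries, against 3827, 4029 and 4779 in the DMSO libraries. It fell by 0.76 ± 0.08 on the log2 scale (SE, limma adjusted p = 1.80e-07). COX4I1, which takes part in regulating the enzyme, had 6498, 6137 and 6298 in the sorafenib libraries, against 8411, 8231 and 9881 in the DMSO libraries (log2 change -0.48 ± 0.07 (SE), limma adjusted p = 9.11e-06). COX6A1 had 1404, 1219.5 and 945 in the sorafenib libraries, against 1617, 1622 and 1771 in the DMSO libraries, with sorafenib replicate 3 well below the other sorafenib libraries. Its fall of 0.51 ± 0.12 (limma adjusted p = 0.00284) did not pass without DMSO replicate 3.

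ATP synthase had 16 of 17 tested subunits lower and none higher, with the lowest median of the 5 complexes, -0.61. Differences between complexes were not tested. In the catalytic head all 5 subunits fell. ATP5F1B, the catalytic beta subunit, had 26443, 25965 and 26034 normalized read counts in the sorafenib libraries, against 34403, 34592 and 39809.9 in the DMSO libraries. Each sorafenib library was below all DMSO libraries, and ATP5F1B fell by 0.47 ± 0.06 on the log2 scale (SE, limma adjusted p = 5.24e-06). ATP5F1A, the alpha subunit, had 6878, 6691 and 6563 in the sorafenib libraries, against 10656, 10675 and 11002 in the DMSO libraries. It fell by 0.68 ± 0.05 on the log2 scale (SE, limma adjusted p = 1.04e-08). The membrane ring that turns with the proton flow is built from a c subunit that 3 genes encode with the same mature protein, and all 3 fell. ATP5MC1 had 2176, 1883 and 1955 in the sorafenib libraries, against 4023, 3862 and 4336 in the DMSO libraries. It fell by 1.02 ± 0.07 on the log2 scale (SE, limma adjusted p = 1.21e-09), to 49.2% of its DMSO mean. ATP5MC2 and ATP5MC3 changed by -0.65 ± 0.07 and -0.60 ± 0.07. RefSeq names 8 pseudogenes of ATP5MC1.

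The peripheral stalk holds the head in place, and all 4 of its subunits fell, ATP5PD by 0.84 ± 0.07, ATP5PF by 0.74 ± 0.07, ATP5PO by 0.52 ± 0.08 and ATP5PB by 0.41 ± 0.06 on the log2 scale (SE). Of the small membrane subunits that help pair the enzyme into dimers, 4 of 5 tested fell. ATP5ME, the e subunit, had the largest fall of all 74 genes, with 239.7, 225 and 171 normalized read counts in the sorafenib libraries, against 434, 441 and 470.4 in the DMSO libraries. Sorafenib replicate 3 was the lowest library, no value overlapped, and ATP5ME fell by 1.09 ± 0.12 on the log2 scale (SE, limma adjusted p = 3.78e-07). ATP5MF, the f subunit, had 2258, 2018 and 1848 in the sorafenib libraries, against 3729.8, 3459 and 3927 in the DMSO libraries (log2 change -0.86 ± 0.07 (SE), limma adjusted p = 2.95e-08). ATP5MG, the g subunit, had 499, 443 and 431 in the sorafenib libraries, against 496, 509 and 569.7 in the DMSO libraries. One sorafenib library lay above the lowest DMSO library, and ATP5MG missed the threshold (log2 change -0.20 ± 0.09 (SE), limma adjusted p = 0.0546).

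The remaining 4 genes had means under 10 and were not tested. NDUFA6 had 0 reads in all 6 libraries. NDUFA3 had at most 2.18 normalized read counts, and TFPT, which overlaps it, had 0 reads. ATP5MGL, a copy of the gene for the g subunit, had at most 1.09. NDUFA7 had 20.3, 8.15 and 10.7 normalized read counts in the sorafenib libraries, against 2.25, 4.82 and 7.64 in the DMSO libraries, so that all sorafenib libraries were above all DMSO libraries at a low level. RefSeq names pseudogenes for 50 of the 78 genes, and 33 gene spans overlap another gene, so levels of single genes can carry reads of neighbours or copies.

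**Figure D3:**
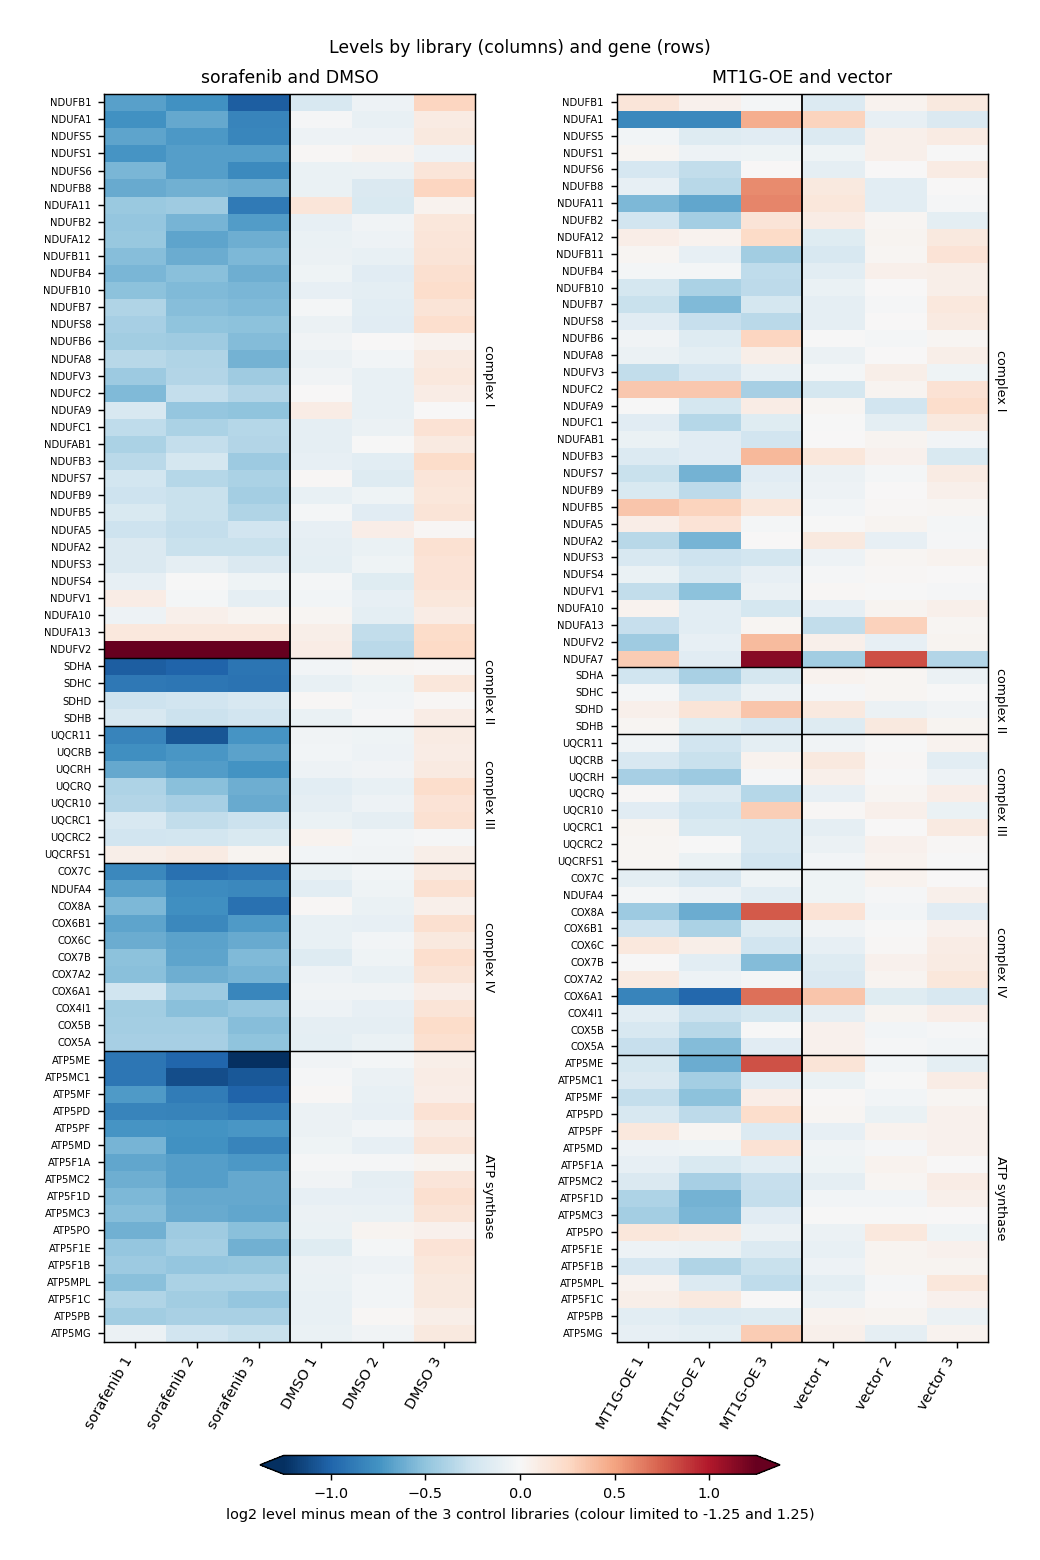
Colours give each library's log2 level minus the mean of the 3 control libraries of its experiment, with sorafenib left of DMSO in the first panel and MT1G-OE left of vector in the second; rows are tested subunit genes ordered by complex, with 1 gene not drawn. Colours are limited at the ends of the scale. The sorafenib columns are blue in most rows and red for NDUFV2, DMSO replicate 3 is faintly red in most rows, and MT1G-OE replicate 3 is red in rows such as COX6A1 and COX8A where the other MT1G-OE libraries are blue.

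The 13 subunits encoded by mitochondrial DNA, which complete complexes I, III, IV and V, all fell with sorafenib, with a median of -0.69 (range -1.88 to -0.34). With scaling by total reads 11 of the 13 fell, with a median of -0.46. MT-CO2, which takes electrons from cytochrome c, averaged 31858 ± 1338 normalized read counts in sorafenib and 117142 ± 6726 in DMSO libraries (SD, n = 3 each) and fell by 1.88 ± 0.06 on the log2 scale (SE, limma adjusted p = 2.18e-13). MT-CO1, the catalytic subunit of complex IV, averaged 121126 ± 3455 in sorafenib and 289699 ± 15790.3 in DMSO libraries (log2 change -1.26 ± 0.06 (SE), limma adjusted p = 1.93e-11). The 3 mitochondrial subunits of complex IV had a median of -1.26, against -0.57 for its 11 nuclear subunits. MT-CYB of complex III changed by -0.84 ± 0.06, the 7 MT-ND genes of complex I by a median of -0.46 and the pair of ATP synthase genes by a median of -0.54. The difference between the genomes was not tested.

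Lists of genes that build or supply the chain differed in their counts, and the direction of several depended on the scaling. Their counts are to be read against the 35.8% of all tested genes that fell and the 34.4% that rose. Of 16 assembly factors of complex I, 3 rose and 5 fell (median -0.12). NDUFAF5, which modifies NDUFS7, rose by 0.59 ± 0.10, as did NDUFAF7, while NDUFAF8, the partner of NDUFAF5, fell. NDUFAF7 changed by 0.51 ± 0.11 and NDUFAF8 by -0.70 ± 0.08 (SE, limma adjusted p = 4.08e-04 and 1.55e-06). For complex II, whose subunits all fell, 3 of 4 assembly factors rose and none fell (median 0.47). SDHAF1, which helps insert the clusters of SDHB, had 481, 424 and 423 normalized read counts in the sorafenib libraries, against 258, 249 and 267 in the DMSO libraries. No value overlapped, and SDHAF1 rose by 0.78 ± 0.09 on the log2 scale (SE, limma adjusted p = 1.21e-06). SDHAF2, which helps attach the flavin to SDHA, changed by 0.31 ± 0.09. SDHAF4 changed by 0.62 ± 0.26 with overlapping groups, and its call was lost in DESeq2. Of 6 complex III factors 2 rose and 2 fell, with TTC19 at 0.78 ± 0.09, BCS1L, which inserts the Rieske protein, at 0.20 ± 0.08 and UQCC2 at -0.55 ± 0.09. Of 22 complex IV factors 6 rose and 10 fell (median -0.20). LRPPRC, an RNA-binding protein that stabilises mitochondrial messenger RNA, averaged 3178 ± 97.3 normalized read counts in sorafenib and 7473 ± 744 in DMSO libraries (SD, n = 3 each) and fell by 1.23 ± 0.07 on the log2 scale (SE, limma adjusted p = 1.71e-10). The copper chaperone SCO1 changed by -0.74 ± 0.07 and COA7 by -0.65 ± 0.06. With scaling by total reads the medians of the complex I and complex IV factors became positive, at 0.11 and 0.02.

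Of 4 assembly or inhibitor genes of ATP synthase 2 rose and 2 fell. ATP5IF1, which inhibits ATP hydrolysis by the enzyme, averaged 1883 ± 307 normalized read counts in sorafenib and 3073 ± 174 in DMSO libraries (SD, n = 3 each) and fell by 0.72 ± 0.10 on the log2 scale (SE, limma adjusted p = 3.13e-05). The assembly genes ATPAF2 and TMEM70 changed by 0.45 ± 0.09 and 0.36 ± 0.08. Among 9 genes of electron carriers and of phosphate and adenine nucleotide exchange, 6 fell, or 66.7%, and none rose (median -0.32). SLC25A3, the phosphate carrier, averaged 8132 ± 79.6 normalized read counts in sorafenib and 16171 ± 1287 in DMSO libraries and fell by 0.99 ± 0.06 on the log2 scale (SE, limma adjusted p = 6.45e-10). ETFB, an electron transfer flavoprotein, changed by -0.81 ± 0.09 and SLC25A5, an adenine nucleotide carrier, by -0.46 ± 0.06. CYC1, the complex III subunit outside the name pattern, sits in this list and changed by -0.32 ± 0.07 (SE, limma adjusted p = 7.29e-04). With scaling by total reads 3 of the 9 fell and 1 rose. The list of coenzyme Q genes had 3 of 13 genes higher and 1 lower (median 0.14). Its called rises were COQ10A (0.94 ± 0.08), COQ10B (0.87 ± 0.13) and COQ6 (0.69 ± 0.13). The count of rises in that list was 7 without DMSO replicate 3 and 11 with scaling by total reads.

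Of 11 alternative subunit forms outside the name pattern 6 reached the minimum mean, 5 of which fell and 0 of which rose (median -0.42). At an unadjusted p under 0.05 1 rose. The count of rises was also 1 in edgeR, with scaling by total reads and without DMSO replicate 3, and 0 in DESeq2. COX7B2 changed by -1.01 ± 0.13 and COX6B2, the testis form of COX6B1, by -0.61 ± 0.11 on the log2 scale. COX4I2 and COX8C were at 0 reads in all 6 libraries, and NDUFA4L2 averaged 3.50 ± 1.57 normalized read counts in sorafenib and 3.53 ± 1.70 in DMSO libraries. Among 15 tested regulators of respiratory genes, 7 fell and 5 rose (46.7% and 33.3%, near the 35.8% and 34.4% of all tested genes), with a median of -0.17 that became 0.06 with scaling by total reads. PPARGC1B, a coactivator of mitochondrial biogenesis, had 63.3, 54.4 and 53.4 normalized read counts in the sorafenib libraries, against 259, 277 and 227 in the DMSO libraries. The groups were far apart, and it fell by 2.14 ± 0.14 on the log2 scale (SE, limma adjusted p = 9.10e-10). SP1, a general promoter factor, changed by -1.10 ± 0.07 (SE, limma adjusted p = 7.20e-10). MYC averaged 12882 ± 255 normalized read counts in sorafenib and 8443 ± 91.3 in DMSO libraries and rose by 0.61 ± 0.05 on the log2 scale (SE, limma adjusted p = 3.68e-08). NRF1, whose letters were counted above, fell by 0.48 ± 0.09, whereas GABPB1, a partner of the ETS factor GABPA, rose by 0.59 ± 0.07 (SE, limma adjusted p = 1.00e-04 and 1.79e-06). NRF1 and GABPB1 were named after their values were seen.

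**Figure D4:**
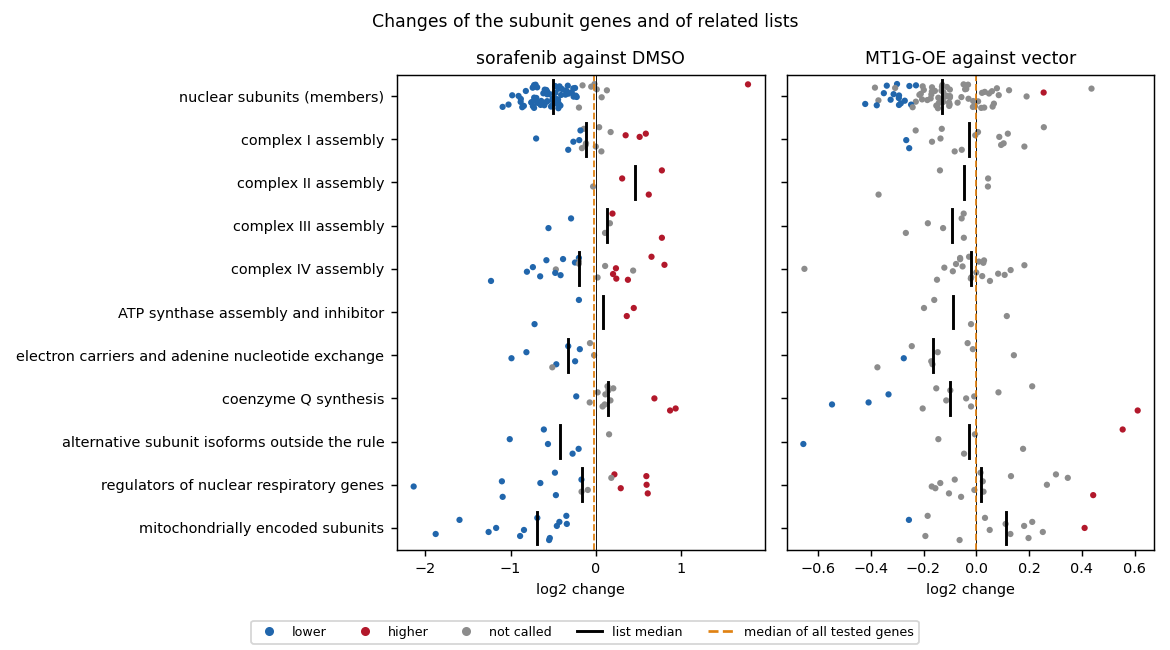
Each point is the log2 change of a tested gene, in rows by list, with sorafenib against DMSO on the left and MT1G-OE against vector on the right (the axes differ in range); black bars are list medians and the dashed line is the median of all tested genes. With sorafenib the medians of the subunit genes and of the mitochondrially encoded subunits lie left of the dashed line, at -0.51 and -0.69. The median of the complex II assembly factors lies to the right at 0.47.

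MT1G overexpression gave a smaller and less even picture. Of 75 tested subunit genes 15 fell and 1 rose, and 59 did not pass. Among all 13914 tested genes 11.3% fell and 11.5% rose, 22.8% in either direction. The median log2 change was -0.13 over the subunit genes and -6.58e-05 over all tested genes. Among the 10% of tested genes with the highest means 28.0% fell, with a median of -0.13, and of 29 subunit genes in that class 11 fell. In 25 subunit genes all MT1G-OE libraries lay below all vector libraries and in 1 all lay above, against 20.5% and 18.9% of all tested genes. With scaling by total reads 6 genes fell, and leaving out 1 library at a time gave 4 to 28 falls, so the count is not stable. It was 4 without vector replicate 3, 5 without vector replicate 2, 9 without vector replicate 1 or MT1G-OE replicate 2, and 28 without MT1G-OE replicate 3. The share of reads in the 78 genes was 1.09% to 1.19% in MT1G-OE libraries and 1.21% to 1.26% in vector libraries. Hepatocyte and hepatoma markers summed to 798 to 952 with MT1G-OE and 864 to 921 with vector, with 7 of 18 at 0 in all libraries. Fibroblast and stellate markers summed to 2644 to 3475 with MT1G-OE and 2159 to 2206 with vector. Of 5 of these markers tested 2 rose and 0 fell, and at an unadjusted p under 0.05 in limma 3 rose and 1 fell. The part of all these markers in these results was not tested.

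The falls were spread over all 5 complexes. In the complex I core 4 of 7 fell, NDUFV1 by 0.30, NDUFS7 by 0.34, NDUFS8 by 0.25 and NDUFS3 by 0.23 on the log2 scale. None of these 4 passed with scaling by total reads, without vector replicate 2 or without vector replicate 3, and NDUFS8 also missed the threshold without MT1G-OE replicate 3 (limma adjusted p = 0.0567). NDUFV1 had 3736, 3239.9 and 4385 normalized read counts in the MT1G-OE libraries, against 4684, 4605 and 4596 in the vector libraries. The MT1G-OE libraries spread widely but stayed below the vector libraries (log2 change -0.30 ± 0.09 (SE), limma adjusted p = 0.0246). Of 28 accessory subunits 2 fell. NDUFB7 had 2402, 1996 and 2509.9 in the MT1G-OE libraries, against 2697, 2897 and 3191 in the vector libraries (log2 change -0.35 ± 0.09 (SE), limma adjusted p = 0.0102). NDUFB10 had 3396, 2993 and 3154 in the MT1G-OE libraries, against 3733, 3970.1 and 4150.1 in the vector libraries (log2 change -0.31 ± 0.08 (SE), limma adjusted p = 0.00748). NDUFB5 was the only subunit gene that rose, with 797, 763 and 694 in the MT1G-OE libraries, against 612, 636 and 637 in the vector libraries. Its libraries did not overlap, but the change of 0.26 ± 0.09 was at the edge of the threshold (limma adjusted p = 0.0494) and was lost when any library other than MT1G-OE replicate 3 was left out. NDUFV2 stayed low at 8.95, 11.6 and 16.8 in the MT1G-OE libraries, against 13.2, 11.6 and 12.8 in the vector libraries (-0.05 ± 0.39, 95% interval -0.86 to 0.76). NDUFS1 changed by -0.03 ± 0.08 and did not pass.

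In complex II SDHA fell, with 1015, 911 and 1038 normalized read counts in the MT1G-OE libraries, against 1249, 1233 and 1146 in the vector libraries. All MT1G-OE libraries were below the vector libraries, and SDHA fell by 0.29 ± 0.09 on the log2 scale (SE, limma adjusted p = 0.0193). SDHB, SDHC and SDHD changed by -0.11 ± 0.09, -0.10 ± 0.08 and 0.19 ± 0.10 and did not pass. In complex III only UQCRH was called, with 5970.0, 5818 and 7891 in the MT1G-OE libraries, against 8327, 7930.4 and 7644 in the vector libraries. MT1G-OE replicate 3 lay inside the vector range (log2 change -0.29 ± 0.10 (SE), limma adjusted p = 0.0443). The call was lost with TMM scaling, with scaling by total reads, in edgeR and without any single library other than MT1G-OE replicate 3. COX5A and COX6B1 fell in complex IV. COX5A had 2692, 2265 and 2975 in the MT1G-OE libraries, against 3406, 3249.5 and 3221 in the vector libraries (log2 change -0.32 ± 0.09 (SE), limma adjusted p = 0.0136). COX6B1 had 3539.7, 3231 and 3810.2 in the MT1G-OE libraries, against 4115, 4227 and 4402 in the vector libraries (log2 change -0.27 ± 0.08 (SE), limma adjusted p = 0.0189). COX6B1, like COX5A, did not pass with scaling by total reads. COX4I1, at -0.21 ± 0.08, did not pass.

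ATP synthase had 5 of 17 tested subunits lower. ATP5F1D, the delta subunit of the head, had the largest called fall, with 4861, 4217 and 5157 normalized read counts in the MT1G-OE libraries, against 6166, 6203 and 6633 in the vector libraries. The lowest value was MT1G-OE replicate 2, no values overlapped, and ATP5F1D fell by 0.42 ± 0.08 on the log2 scale (SE, limma adjusted p = 0.00114). ATP5F1B changed by -0.29 ± 0.08 (SE, limma adjusted p = 0.0140) and ATP5F1A by -0.14 ± 0.07, which did not pass. All 3 genes of the c ring fell. ATP5MC3 had 3807, 3434 and 4633 in the MT1G-OE libraries, against 5083, 5096 and 5124 in the vector libraries (log2 change -0.38 ± 0.09 (SE), limma adjusted p = 0.00661). ATP5MC2 and ATP5MC1 changed by -0.29 ± 0.08 and -0.25 ± 0.09 (SE, limma adjusted p = 0.0154 and 0.0432). Of 4 stalk subunits and 5 tested membrane accessory subunits 0 passed in limma, and 0 had an unadjusted p under 0.05, with medians of -0.05 and -0.01. With scaling by total reads ATP5F1D and ATP5MC3 still passed (changes of -0.35 and -0.31), while ATP5MC1 and SDHA did not. ATP5F1D and ATP5MC3 were the only falls that passed under every other scaling, filter, pseudocount and test and in every fit with a library left out.

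MT1G-OE replicate 3 moved many of these values. COX6A1 had 604, 542 and 1721 normalized read counts in the MT1G-OE libraries, against 1361, 962 and 932 in the vector libraries. Replicate 3 was the highest of the 6 libraries and the other MT1G-OE libraries were the lowest, which gave a change of -0.37 ± 0.55 (95% interval -1.86 to 1.12). COX8A had 743, 663 and 1726 in the MT1G-OE libraries, against 1146, 995 and 924 in the vector libraries. NDUFA1 had 859.8, 857 and 2055 in the MT1G-OE libraries, against 1823, 1399 and 1321 in the vector libraries. ATP5ME, NDUFA11, NDUFB8 and, at a low level, NDUFA7 were also highest in MT1G-OE replicate 3. These genes were named after their values were seen. Without that library 28 subunit genes fell and 2 rose, NDUFB5 and NDUFC2, and 14 of the 15 falls remained, all but NDUFS8. NDUFA1 then changed by -0.80, COX6A1 by -0.90 and COX8A by -0.54 on the log2 scale (limma adjusted p = 5.73e-05, 0.00193 and 2.87e-04). Deviations of the 75 subunit genes from their group means in MT1G-OE replicate 3 were correlated with those in each vector library. The correlation was 0.63 with vector replicate 1, -0.12 with vector replicate 2 and -0.65 with vector replicate 3. Over all tested genes these values were 0.13, -0.06 and -0.06. Within a group the deviations of a gene cancel out, so these values depend on each other. Without both MT1G-OE replicate 3 and vector replicate 1, a choice made after seeing this, 21 genes fell and none rose. What sets these libraries apart was not tested.

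**Figure D5:**
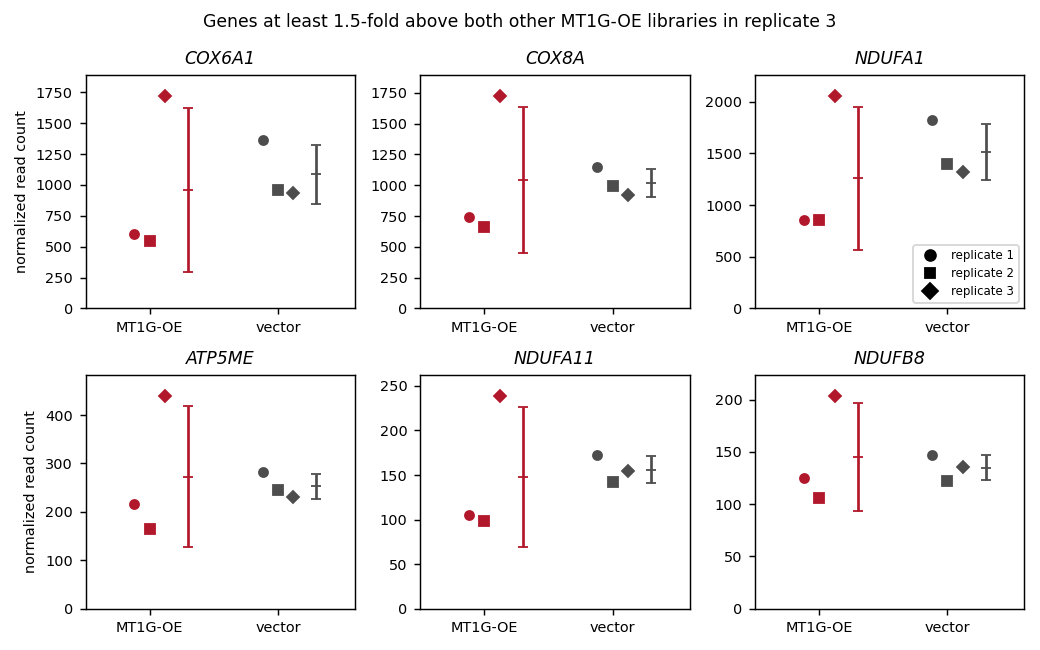
The vertical axes are normalized read counts of 6 subunit genes, with MT1G-OE left of vector; symbols mark replicates 1 to 3 and bars the mean ± SD (n = 3). In each panel MT1G-OE replicate 3 is the highest of the 6 libraries, and in all but NDUFB8 both other MT1G-OE libraries are below every vector library.

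The mitochondrially encoded subunits did not fall as a group with MT1G-OE, with 1 of 13 lower, 1 higher and a median of 0.11 (4 higher and 0 lower without MT1G-OE replicate 3). MT-ND6 rose by 0.41 ± 0.09 and MT-ND3 fell by 0.26 ± 0.09 (SE, limma adjusted p = 0.00171 and 0.0362). With scaling by total reads 5 of the 13 rose and none fell. Of 31 tested assembly factors of complexes II, III and IV 0 passed in limma, edgeR or DESeq2, and 0 had an unadjusted p under 0.05 in limma. Counts from the limma fit in these lists are to be read against the 11.3% of all tested genes that fell and the 11.5% that rose. Of 16 complex I factors 2 fell, or 12.5%, which is near that share. They were ACAD9, which also oxidises fatty acids, by 0.27 and FOXRED1 by 0.25. In the list of coenzyme Q genes the kinase-like proteins COQ8A and COQ8B and the synthesis factor COQ4 fell. COQ8B averaged 601 ± 75.5 normalized read counts in MT1G-OE and 875 ± 58.4 in vector libraries (SD, n = 3 each) and fell by 0.55 ± 0.10 on the log2 scale (SE, limma adjusted p = 6.27e-04). COQ10B rose, by 0.61 ± 0.13 (SE, limma adjusted p = 0.00155). Of 9 carrier genes SLC25A3 alone fell (11.1%, near the 11.3% of all tested genes), by 0.27 ± 0.08. COX6B2 rose and UQCRHL, a copy of UQCRH, fell, by 0.56 and 0.66. Of 15 tested regulators 1, CREB1, rose.

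In all, 74 subunit genes were tested in both experiments, which share no libraries, and 13 fell in both, which is 19.7% of the 66 that fell with sorafenib and 86.7% of the 15 that fell with MT1G-OE. These shares are near those of all tested subunit genes, of which 20% fell with MT1G-OE and 89.2% with sorafenib. The other 2 falls with MT1G-OE, NDUFV1 and NDUFS3, were core subunits that did not pass with sorafenib. Among shared falls, SDHA changed by -0.98 ± 0.07 with sorafenib and -0.29 ± 0.09 with MT1G-OE, ATP5MC1 by -1.02 ± 0.07 and -0.25 ± 0.09, and ATP5F1D by -0.61 ± 0.07 and -0.42 ± 0.08 (log2 ± SE). NDUFB5 changed by -0.28 ± 0.09 with sorafenib and 0.26 ± 0.09 with MT1G-OE. The tables were normalized separately, and the difference between the experiments was not tested.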

How the data were processed

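RNA libraries and ATAC-seq libraries were grouped by their labels. Per the submitters' processing notes, reads were trimmed with cutadapt, aligned to hg38 with HISAT2 (RNA) or Bowtie2 2.4.1 (ATAC), counted with featureCounts 1.6.1 and compared with DESeq2. Peaks were called with MACS2 2.2.7.1. Roles, strand and multi-mapping settings were not given in the sources used here. The RNA values the authors deposited are a normalized signal, reads divided by a size factor per library. Dividing by the value of 1 read gave whole numbers for 100% of values (tolerance 0.001). Each of the authors' peak lists holds 1 library, with a score, a fold enrichment and −log10 p and −log10 q values per peak, per the deposited files. The authors' deposited tables also gave log2 changes and p-values.

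limma 3.58.1 in R 4.3.3 (trend and robust, two-sided) was fitted to log2(value + 1) within each experiment, for genes whose mean over its 6 libraries reached 10, with Benjamini-Hochberg adjustment over all of them at 0.05. Fold changes on this scale understate those of low genes. DESeq2 1.42.0, and edgeR 4.0.16 (added after the data were seen), were run on the recovered reads. Columns numbered 1 to 3 were taken as replicates 1 to 3, which is an assumption. Deviations of same-numbered libraries correlated between -0.14 and 0.04, so the numbers were not used as pairs. Start sites and promoters came from RefSeq, GRCh38.p14. Members matched RefSeq by symbol in 75 cases and by synonym in 3 (NDUFA4, ATP5MD and ATP5MPL). The genes, the lists and the motif letters were chosen with earlier results of these data known. Named genes were, per complex, the largest rises and falls, the smallest p-values, the highest means, all core subunits of complex I and all of complex II, plus up to 3 called genes per list. Other named genes were chosen after their values were seen. 1 gene that this rule names is counted in the totals but is not reported here. The scripts were tested on simulated data. Alternatives covered scaling, the minimum mean, the pseudocount, the test, a replicate block and leaving out each library. Figures used Python 3.11.15, pandas 2.3.3 and matplotlib 3.10.9.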

Additional observations from a re-analysis of the deposited data

How the results depend on the processing

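With sorafenib the count of subunit genes that fell stayed between 52 and 68 in the 14 fits other than the limma fit described above. Scaling by total reads moved the count of rises to 4 and the median to -0.28. With the authors' size factors, 39 genes fell by at least 0.5 on the log2 scale. Changes near 0 turned sign. NDUFV1 became 0.21 with scaling by total reads and 0.0202 in edgeR, and ranged from -0.0707 to 0.0540 with 1 library left out, above 0 without sorafenib replicate 3 or DMSO replicate 3. NDUFS3 became 0.0695 with scaling by total reads. With MT1G-OE the counts depended more on the setting. Scaling by total reads left 6 falls. Leaving out 1 library gave 4 to 28 falls and 0 to 2 rises. With vector replicate 3 left out 4 genes fell, with vector replicate 2 left out 5, with vector replicate 1 or MT1G-OE replicate 2 left out 9, and with MT1G-OE replicate 3 left out 28. The single rise, NDUFB5, was lost (0 rises) with no minimum mean, in DESeq2, with the replicate block, without any single library other than MT1G-OE replicate 3, and without MT1G-OE replicate 3 and vector replicate 1 together, an omission added after the data were seen. No gene (0 falls and 0 rises) was called with a change of at least 0.5. NDUFV2 with MT1G-OE became 0.0145 with scaling by total reads, 0.01004 in DESeq2 and 0.0369 in edgeR, and ranged from -0.271 to 0.150 with 1 library left out, and NDUFS1 became 0.0360 with scaling by total reads. The cause was not tested. The replicate block, fitted although the numbers did not pair the libraries, gave 66 falls and 1 rise with sorafenib and 16 falls and 0 rises with MT1G-OE. Among single genes 1183 values kept their direction and call, 95 lost the call, 7 gained it and 10 turned sign. The 65 genes with a start-site peak stayed 65 in all lists with −log10 q of at least 5 or a window of 250 bases, and became 63 in DMSO replicate 1 where the start had to lie inside the peak. Few reads were counted for NDUFV2, NDUFA7, NDUFA3 and ATP5MGL, and NDUFA6 had no reads. The reason was not tested.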
